A study of Mus musculus with 6 samples.

Results

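The nuclear genes of oxidative phosphorylation were compared between the high-pigmented (HPC) and the low-pigmented (LPC) cells of B16-F3, a mouse melanoma line, with 3 RNA libraries per population. Members were chosen by gene name alone: symbols of the Nduf subunit series, the 4 Sdh genes, symbols beginning with Uqcr or Atp5, Cox4 to Cox8, Cyc1 and Cycs. The rule found 87 of the 22740 genes in the count table: 35 of complex I, 4 of complex II, 9 of complex III, Cycs (cytochrome c), 20 of complex IV and 18 of complex V. Of these, 79 had enough reads to be tested, among 11921 tested genes. Both populations came from the same line, with no drug or genetic treatment named in the labels, grown in DMEM with 10% fetal bovine serum and 1% penicillin/streptomycin, and were separated only by a cell sorter that reads how melanin scatters light. The line is 1 cultured line, and nothing in the labels ties a replicate to its own culture or sort, so p-values measure the spread among libraries, and that spread may be technical.

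Oxidative phosphorylation is the process by which mitochondria turn the energy of NADH and succinate into ATP. Complexes I and II pass electrons to ubiquinone, complex III passes them on to cytochrome c, and complex IV passes them to oxygen, while complexes I, III and IV pump protons across the inner membrane. Complex V, the ATP synthase, lets the protons flow back and makes ATP. Most subunits are encoded in the nucleus and described here, and a few are encoded in mitochondrial DNA. In pigment cells, the lineage factor MITF is known to drive PPARGC1A, a coactivator of genes for mitochondrial respiration.

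The libraries held 14695822 to 22186743 assigned reads. In CPM (reads scaled to a common library size), 7 melanocyte lineage markers summed to 33390 to 36860 in HPC and 32190 to 34640 in LPC. The 6 immune markers found in the table summed to 1.42 to 3.03 CPM in HPC and 1.21 to 2.22 CPM in LPC, with Ptprc, Cd3e and Itgam at 0 in every library. The 8 fibroblast, endothelial and keratinocyte markers summed to 19.4 to 28.4 CPM in HPC and 17.7 to 34.2 CPM in LPC, with Cdh5, Krt5 and Krt14 at 0. Of these, Pdgfra was at 4.31 ± 1.24 in HPC against 9.47 ± 4.03 CPM in LPC (SD, n = 3). It passed only when libraries of equal replicate number were paired in the fit (edgeR adjusted p = 0.0454). Without the pairing it did not pass in edgeR (adjusted p = 0.344) or DESeq2 (adjusted p = 0.0831). Col1a2, a collagen gene and the most abundant marker of that list, named after its values were seen, was at 15.3 ± 5.25 in HPC against 11.9 ± 10.6 CPM in LPC (SD, n = 3; edgeR adjusted p = 0.26 with the pairing), and the part of such cells in the results was not tested. Tyr, the tyrosinase gene of the melanin pathway, was at 908, 855 and 994 CPM in the HPC libraries, in the order of their replicate numbers, and 261, 62.2 and 238 CPM in the LPC libraries, so its groups did not overlap. Its log2 fold change was 2.30 ± 0.45 (SE). The edgeR adjusted p of Tyr was 0.172 without the pairing and 0.021 with it, and the DESeq2 adjusted p was 0.00925. LPC replicate 2 stood apart: transcript length and GC content accounted for 13.01% of the variance of its log2 levels about the mean library, against 2.62% to 6.68% in the others.

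No oxidative phosphorylation gene passed the test between HPC and LPC, and the differences were small. Of the 79 tested members, 74 (93.7%) had a negative log2 fold change, meaning a lower fitted level in HPC, against 51.8% of all tested genes. The median was -0.15, against -0.009 over all tested genes, and single genes ran from -0.30 for Atp5h to 0.10 for Ndufa13. The edgeR quasi-likelihood test (Benjamini-Hochberg adjusted p under 0.05) called 0 members higher and 0 lower in HPC, while it called 0% of all tested genes higher and 0.0419% lower. Tyr, with its far larger difference, was not called by this test either. At an unadjusted p under 0.05 the same test also gave 0 members, against 5.06% of all tested genes higher and 4.31% lower in HPC. No member passed in DESeq2 (0 called), which called 1.02% of its tested genes higher and 0.856% lower in HPC, or in limma-voom (0 called), which called 0% and 0.0419%. A fit that pairs libraries of equal replicate number (a replicate block) called 0 members, with 1.43% of all genes higher and 1.1% lower, and gave 3 members an unadjusted p under 0.05, all lower in HPC: Ndufv2, Uqcrc2 and Atp5h. The shares of all genes at that unadjusted level were 10.1% higher and 8.66% lower. In bulk RNA, less of a transcript in every cell and fewer cells that make it cannot be told apart.

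For most members the extremes were the same 2 libraries. LPC replicate 2 was the highest of the 6 libraries for 65 of the 79 members (82.3%), against 16.1% of all tested genes. HPC replicate 3 was the lowest for 54 (68.4%), against 18.4% of all tested genes. The pattern was not particular to the members. Of 77 cytosolic ribosomal protein genes, LPC replicate 2 was the highest library for 60 (77.9%) and HPC replicate 3 the lowest for 69 (89.6%). The median deviation of the members from their mean over 6 libraries (log2 units) was 0.05, -0.02 and -0.23 in the HPC libraries numbered 1, 2 and 3. In the LPC libraries it was -0.05, 0.24 and 0.04. Members together took 1.175%, 1.17% and 1.005% of the reads in HPC and 1.13%, 1.40% and 1.196% in LPC, so the groups overlapped. Without LPC replicate 2 the median log2 fold change was -0.036 with 54 negative members, and without HPC replicate 3 it was -0.076 with 62. Without LPC replicate 1 it was -0.23 with 75.

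**Figure D1:**
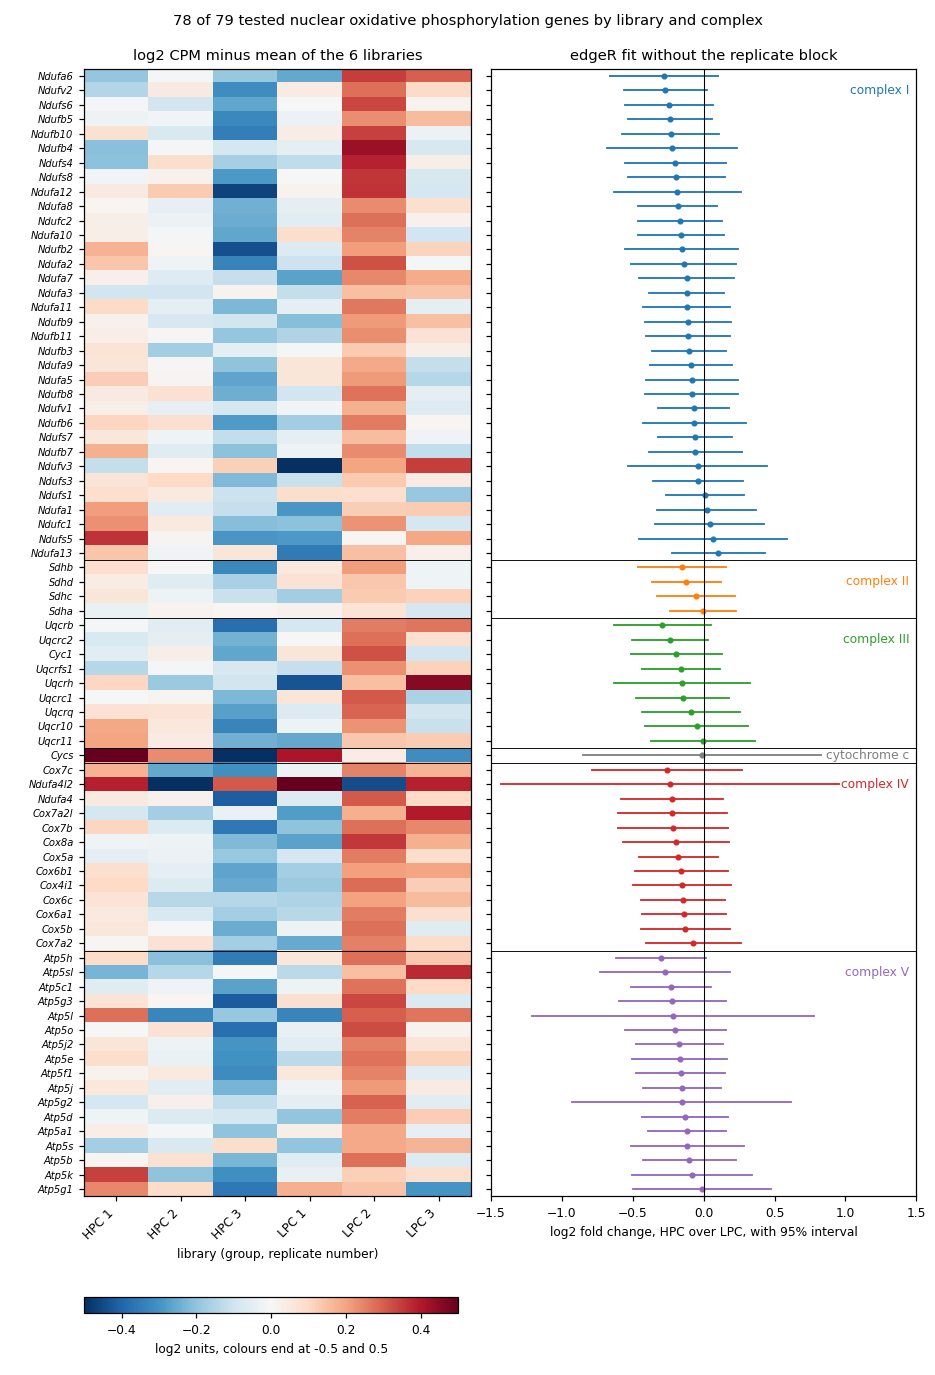
Left, the log2 CPM in each library of the 79 tested members, of which 1 is not drawn, minus its mean over the 6 libraries (red above, blue below), grouped by complex; right, the log2 fold change of HPC over LPC from the edgeR fit without the replicate block, with its 95% interval. LPC replicate 2 is red for nearly all members and HPC replicate 3 blue for most, and every interval includes 0.

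The replicate numbers gave different answers. Between the libraries numbered 1, 60 of 79 members were higher in HPC, with a median difference of 0.08 in log2 CPM. Between those numbered 2, 77 were lower in HPC (median -0.27), and between those numbered 3, 76 were lower (median -0.26). Over all tested genes the 3 medians were 0.002, -0.012 and -0.009. Only 17 members (21.5%) were lower in HPC for every replicate number, against 21.3% of all tested genes, and none was higher for every number. The 3 HPC and 3 LPC values did not overlap for 2 members, both lower in HPC, and for 0 higher, while 7.18% of all tested genes did not overlap with HPC lower and 7.16% with HPC higher. The share of members in the lower direction, 2 of 79, was thus not above that of all genes.

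**Figure D2:**
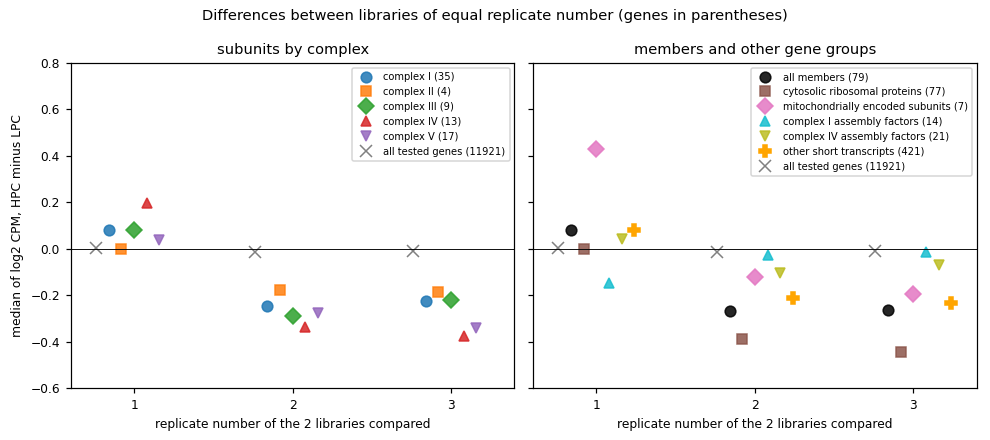
Median difference in log2 CPM, HPC minus LPC, between libraries of equal replicate number; the left panel shows the subunits by complex, the right panel all members beside other gene groups, with the number of genes in parentheses and points set side by side to keep them apart. All 5 complexes lie above 0 for number 1 (with scaling by library size only, complexes II and V stand at -0.037 and -0.001) and below 0 for numbers 2 and 3, with complex IV farthest from 0 (0.20, -0.34 and -0.38).

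Complex I, which oxidises NADH, had 35 tested members, 30 of them with negative log2 fold changes (median -0.11), and 0 passed. With each library corrected for its trend with transcript length and GC content, 23 were negative and the median was -0.027. Its 7 core subunits, which carry the redox centres and the quinone site, had a median of -0.069 with 6 negative. The 28 accessory subunits had a median of -0.12 with 24 negative. Between the libraries numbered 1, 2 and 3 the median difference of all 35 was 0.08, -0.25 and -0.23. Without LPC replicate 2 the complex I median was -0.002, without HPC replicate 3 it was -0.041, and without LPC replicate 1 it was -0.20.

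At the NADH-binding end of complex I, Ndufv2 (GRCm38 chr17:66078638-66101559, minus strand), an iron-sulfur subunit, was at 105, 119 and 93.2 CPM in HPC and 119, 140.1 and 124 CPM in LPC. HPC replicate 3 was lowest and LPC replicate 2 highest, and HPC replicate 2 lay just above LPC replicate 1, so the groups overlapped. Its log2 fold change was -0.27 ± 0.13 (SE, 95% interval -0.56 to 0.02, edgeR adjusted p = 0.577; 0.178 with the replicate block), and it was lower in HPC for 3 of 3 replicate numbers. Ndufv1, the flavoprotein that binds NADH, was at 126, 120.0 and 116 CPM in HPC and 122, 139.8 and 118 CPM in LPC. The ranges of Ndufv1 overlapped, with a log2 fold change of -0.07 ± 0.11. Ndufs1, the large iron-sulfur subunit beside it, was at 240.4, 234 and 210.2 CPM in HPC and 241, 240.2 and 199 CPM in LPC. Its log2 fold change was 0.009 ± 0.12, the one core value above 0, and LPC replicate 3 was its lowest library.

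Among the core subunits at the ubiquinone-binding end, the log2 fold change was -0.04 ± 0.14 for Ndufs3, -0.06 ± 0.11 for Ndufs7 and -0.19 ± 0.15 for Ndufs8. Among the accessory subunits, the lowest unadjusted p belonged to Ndufb5 of the membrane arm and Ndufs6, which binds zinc. Ndufs6 (chr13:73319838-73328542, minus strand) was at 43.29, 40.77 and 36.30 CPM in HPC and 43.45, 54.77 and 43.99 CPM in LPC. The groups of Ndufs6 did not overlap, but HPC replicate 1 and LPC replicate 1 were almost equal. The log2 fold change was -0.24 ± 0.14 (edgeR adjusted p = 0.661). Ndufb5 was at 84.7, 85.5 and 68.9 CPM in HPC and 84.4, 101 and 96.2 CPM in LPC, where HPC replicates 1 and 2 exceeded LPC replicate 1. The 5 complex I members above 0 were Ndufs1 (0.009), Ndufa1 (0.02), Ndufc1 (0.04), Ndufs5 (0.07) and Ndufa13 (0.10), of which the last 4 were named after their values were seen.

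Complex II, succinate dehydrogenase, is the one complex encoded wholly in the nucleus and also an enzyme of the tricarboxylic acid cycle. All 4 genes had negative log2 fold changes (median -0.09) and 0 passed, and with the length and GC correction 3 were negative (median -0.052). Sdha, the flavoprotein that oxidises succinate, was at 367, 380.4 and 379 CPM in HPC and 382, 394 and 354 CPM in LPC. The HPC values of Sdha lay within the range of the LPC values, and the log2 fold change was -0.005 ± 0.10 (95% interval -0.23 to 0.23). Sdhb, the iron-sulfur subunit, was at 300.0, 283 and 226 CPM in HPC and 293, 327 and 278 CPM in LPC. HPC replicate 3 was low for Sdhb and the other HPC values overlapped LPC, with a log2 fold change of -0.15 ± 0.14. The membrane anchors Sdhc and Sdhd, which hold the quinone site, differed by -0.06 ± 0.12 and -0.12 ± 0.11. Sdhd was at 154, 143 and 133 CPM in HPC and 157, 164 and 147 CPM in LPC, with HPC replicate 1 inside the LPC range, and Sdhc at 141, 133 and 125 CPM and 119.7, 148 and 146 CPM. For Sdhc, LPC replicate 1 was the lowest library. Without LPC replicate 2 the complex II median was -0.03, and without HPC replicate 3 it was -0.025.

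Complex III passes electrons from ubiquinol to cytochrome c, and all 9 of its nuclear genes had negative log2 fold changes (median -0.155), with 0 passing. With the length and GC correction 7 of the 9 were negative and the median was -0.078 (-0.047 with the replicate block). The core protein Uqcrc2 (chr7:120635176-120659524, plus strand) was at 171, 175 and 153 CPM in HPC and 180.2, 218 and 191 CPM in LPC. All 3 HPC values were below all 3 LPC values, though HPC replicate 2 was near LPC replicate 1. The log2 fold change of Uqcrc2 was -0.24 ± 0.12 (95% interval -0.51 to 0.03, edgeR adjusted p = 0.606; 0.238 with the replicate block), and it was lower in HPC for 3 of 3 replicate numbers. Uqcrb, a small subunit near the quinone site, was at 46.7, 45.1 and 36.1 CPM in HPC and 44.1, 56.0 and 56.4 CPM in LPC. For Uqcrb, LPC replicate 1 lay below 2 HPC libraries, and the log2 fold change was -0.29 ± 0.15 (edgeR adjusted p = 0.623). Of the redox subunits, Cyc1, the haem-bearing cytochrome, was at 252, 266 and 218 CPM in HPC and 272, 325 and 244 CPM in LPC. Uqcrfs1, the Rieske iron-sulfur protein, was at 123, 136 and 129 CPM in HPC and 126, 159.8 and 148 CPM in LPC. Both had overlapping groups and were lower in HPC for 3 of 3 replicate numbers, with log2 fold changes of -0.19 ± 0.14 and -0.16 ± 0.12. The 5 small subunits ranged from -0.29 to -0.005 with a median of -0.089, and their median was 0.22 for replicate number 1 but -0.22 and -0.37 for numbers 2 and 3. Without LPC replicate 2 the complex III median was -0.062.

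Cytochrome c carries electrons between complexes III and IV and also takes part in apoptosis. Its gene Cycs had few reads, at 8.20, 6.81 and 3.10 CPM in HPC and 7.69, 5.92 and 4.62 CPM in LPC. The highest and the lowest library were both HPC, and the log2 fold change of -0.01 ± 0.37 had a wide 95% interval (-0.85 to 0.83).

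Complex IV, cytochrome c oxidase, hands the electrons to oxygen around a core encoded in mitochondrial DNA. Its 13 tested nuclear genes all had negative log2 fold changes (median -0.18), and 0 passed. With the length and GC correction 11 were negative and the median was -0.10. By replicate number its medians were 0.20, -0.34 and -0.38, the widest spread of the 5 complexes, with 12 of 13 genes higher in HPC for number 1 and all 13 lower for numbers 2 and 3. Cox4i1, a subunit tied to regulation by ATP, was at 458, 407 and 358 CPM in HPC and 376, 518 and 465 CPM in LPC. LPC replicates 2 and 3 were the highest libraries, LPC replicate 1 lay below 2 HPC libraries, and the log2 fold change was -0.15 ± 0.15. Cox5a, which sits on the matrix face, was at 155, 156 and 140.0 CPM in HPC and 150.5, 191 and 169 CPM in LPC, where LPC replicate 1 lay below 2 HPC libraries. The log2 fold change of Cox5a was -0.18 ± 0.12 (edgeR adjusted p = 0.721). Cox5b, a zinc-binding subunit, was at 75.7, 72.7 and 61.1 CPM in HPC and 71.4, 88.1 and 69.7 CPM in LPC, with overlapping groups. Without LPC replicate 2 the complex IV median was -0.076, without HPC replicate 3 it was -0.098, and without LPC replicate 1 it was -0.27.

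Ndufa4 carries a complex I name but is counted here with complex IV, in which its protein is now placed. It was at 380.2, 374 and 277 CPM in HPC and 353, 456 and 395 CPM in LPC. HPC replicate 3 was lowest and LPC replicate 2 highest, while HPC replicates 1 and 2 exceeded LPC replicate 1, and the log2 fold change was -0.22 ± 0.16 (edgeR adjusted p = 0.734). Cox7a2l, known for joining complexes III and IV into supercomplexes, was at 72.4, 68.4 and 75.1 CPM in HPC and 63.4, 87.1 and 101 CPM in LPC. In Cox7a2l the LPC libraries spanned the HPC range on both sides, with a log2 fold change of -0.22 ± 0.17.

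Complex V makes ATP in a catalytic head driven by a rotor that turns in the membrane. Its 17 tested genes all had negative log2 fold changes (median -0.16), and 0 passed, while with the length and GC correction 14 were negative (median -0.113). The 17 include Atp5s and Atp5sl, which are counted here by name but are not subunits of the enzyme. The 5 genes of the catalytic head had a median of -0.13 and the 4 of the peripheral stalk, which holds the head still, a median of -0.18. The beta subunit gene Atp5b, with the catalytic sites, was at 1720.0, 1802 and 1460.0 CPM in HPC and 1641, 2070.0 and 1632 CPM in LPC. The alpha subunit gene Atp5a1 was at 836, 813 and 711 CPM in HPC and 834, 934 and 794 CPM in LPC. Both had overlapping groups with LPC replicate 2 highest, and log2 fold changes of -0.10 ± 0.14 and -0.12 ± 0.12. Atp5c1, the gamma shaft inside the head, was at 254, 262 and 220.4 CPM in HPC and 260.3, 320.2 and 284 CPM in LPC. HPC replicate 2 lay just above LPC replicate 1, and the log2 fold change was -0.23 ± 0.12 (edgeR adjusted p = 0.638).

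The most negative value of any member was that of the peripheral stalk gene Atp5h (chr11:115415689-115419962, minus strand), at 67.2, 54.6 and 49.5 CPM in HPC and 65.5, 76.2 and 69.2 CPM in LPC. HPC replicate 1 lay above LPC replicate 1, and the other HPC values were below all LPC values. Its log2 fold change was -0.30 ± 0.14, a 1.23-fold lower level, with a 95% interval of -0.62 to 0.02 (edgeR adjusted p = 0.565; 0.242 with the replicate block). Of the 50-base words in the last 300 bases of its longest coding transcript, 76.5% also occur in 4 other annotated genes. Reads at its end may thus not be assigned to it alone. Atp5sl carries an ATP synthase name but is known as a complex I assembly factor, and was at 6.74, 7.17 and 7.88 CPM in HPC and 7.22, 8.82 and 10.3 CPM in LPC. The log2 fold change of Atp5sl was -0.27 ± 0.20, with HPC replicate 3 above LPC replicate 1. Without LPC replicate 2 the complex V median was -0.063, and without HPC replicate 3 it was -0.081.

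Several subunits have alternative genes used in other tissues, and in both populations the general form held nearly all reads. Cox4i2, the lung and hypoxia form of Cox4i1, had 0 reads in every library, which allows at most 0.0306% to 0.0539% of the pair's reads, depending on the library. Cox8b, the muscle form of Cox8a, also had 0 reads, which allows at most 0.0675% to 0.133%. These limits cover counting error only. The muscle forms Cox6a2 and Cox7a1 had 2 to 14 and 1 to 3 reads. Their general counterparts had overlapping groups, with Cox6a1 at 199, 182 and 171 CPM in HPC and 175, 229.7 and 203 CPM in LPC. Cox7a2 was at 192, 201 and 169.7 CPM in HPC and 160.4, 227 and 204 CPM in LPC. Cox8a was at 181, 180.4 and 158 CPM in HPC and 152, 235 and 207 CPM in LPC. Ndufa4l2, the hypoxia-linked relative of Ndufa4, had 9 to 26 reads, a share of 0.317% ± 0.188 in HPC and 0.318% ± 0.142 in LPC (SD, n = 3). Of the 3 genes that encode the same rotor subunit c, Atp5g3 held 96.1% ± 0.121 of their reads in HPC and 96.6% ± 0.380 in LPC (SD, n = 3). Atp5g3 was at 409, 392 and 293 CPM in HPC and 413, 492 and 371 CPM in LPC, with overlapping groups. Atp5g1 held 3.66% ± 0.151 and 3.20% ± 0.392 (exact permutation test, two-sided, p = 0.3), and Atp5g2 0.215% ± 0.0334 and 0.202% ± 0.0117. The 50-base words in the last 300 bases of each longest coding transcript were compared with other annotated genes. Of these words, 41.4% for Atp5g2 and 20.3% for Atp5g1 occur in other genes, against 0% for Atp5g3. The low shares may thus be affected by how reads were assigned, which was not tested. Of 8 such shares compared, none passed, and all had an adjusted p of 1, with 0.1 the smallest p that 3 against 3 libraries allow. Another 3 complex IV genes, Cox8c, Cox7b2 and Cox6b2, had 0 reads in all libraries, and the gene named as a pseudogene, Atp5l-ps1, had at most 1.

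Short transcripts that are not members had the same signs by replicate number. The members' transcripts had a median length of 1141 bases, against 3448 bases over all tested genes, and 35 of the 79 were under 1000 bases, against 4.12% of all tested genes. The 421 other tested genes under 1000 bases, ribosomal proteins left out, had a median log2 fold change of -0.13, with 71.7% negative. Their differences by replicate number had medians of 0.08, -0.21 and -0.23, beside 0.08, -0.27 and -0.26 for the members. The 77 cytosolic ribosomal protein genes had a median of -0.28, with medians of -0.002, -0.39 and -0.45 by replicate number. When each library was corrected for its trend with transcript length and GC content, 59 of 79 members were negative with a median of -0.06 (-0.057 with the replicate block). The part of transcript length and of LPC replicate 2 in the members' values beyond this was not tested.

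**Figure D3:**
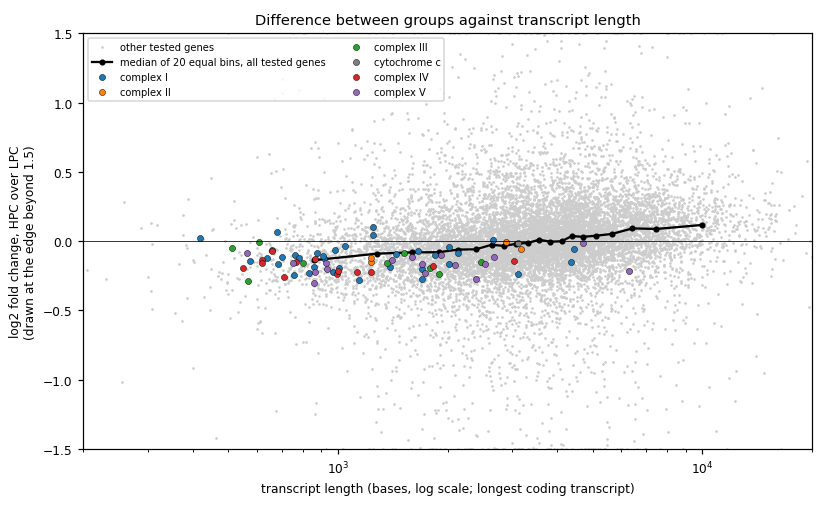
Log2 fold change of HPC over LPC (vertical axis) against the length of the longest coding transcript (horizontal, log scale) for tested genes; coloured points are members by complex, grey points other genes, and the black line joins the medians of 20 bins with equal numbers of genes. The line lies below 0 for short transcripts and above 0 for long ones, and most members lie at the short end around a median of -0.15.

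Genes that serve the complexes without being part of them did not pass either. Of 47 tested assembly factors, 28 had values below 0. Their median log2 fold change was -0.023, and edgeR and DESeq2 called 0 in either direction (DESeq2 called 1.02% of all genes higher and 0.856% lower). At an unadjusted p under 0.05 in edgeR there was 1, Sdhaf1, an assembly factor of complex II named after its values were seen, at 8.42, 8.57 and 8.74 CPM in HPC and 9.04, 15.2 and 14.7 CPM in LPC (edgeR adjusted p = 0.471). The medians were -0.025 for 14 factors of complex I, -0.006 for 7 of complexes II and III, -0.046 for 21 of complex IV and -0.002 for 5 of complex V. Between libraries numbered 1, 2 and 3 the assembly factors' medians were -0.003, -0.067 and -0.029. Their median transcript length was 1813 bases. The difference between the subunits and the assembly factors was not tested.

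Of the 13 messenger RNAs encoded in mitochondrial DNA, 7 had enough reads to be tested, and the other 6 had at most 1 read in any library, so the mitochondrially encoded subunits were measured only in part. The 7 had a median log2 fold change of 0.02, and 0 passed in edgeR, also at an unadjusted p under 0.05. By replicate number their medians were 0.43, -0.12 and -0.20, with all 7 higher in HPC for number 1. mt-Nd5, a proton-pumping subunit of complex I and the one with the smallest p, was at 3066, 2093 and 2195 CPM in HPC and 2209, 1836 and 2497 CPM in LPC. Its log2 fold change was 0.17 ± 0.18 (edgeR adjusted p = 0.841), and HPC replicate 1 was its highest library. Mitochondrial transcripts took 3.21% of the reads of HPC replicate 1 and 2.07% to 2.56% of the others.

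None of the 12 tested regulators of these genes passed. Their median log2 fold change was -0.035, with 8 negative and 0 at an unadjusted p under 0.05 in edgeR. By replicate number the regulators' medians were -0.15, 0.08 and 0.05, with 10, 4 and 5 of the 12 lower in HPC for numbers 1, 2 and 3. Ppargc1a, the coactivator of mitochondrial biogenesis, was at 45.6, 69.0 and 41.4 CPM in HPC and 46.6, 57.5 and 54.5 CPM in LPC, and HPC replicates held both its highest and its lowest value. Its log2 fold change was -0.02 ± 0.20 (edgeR adjusted p = 0.985). The DNA-binding factor Nrf1 was at 56.2, 67.1 and 50.2 CPM in HPC and 70.0, 64.2 and 48.2 CPM in LPC, a log2 fold change of -0.07 ± 0.17. Gabpa of the ETS family was at 72.6, 84.0 and 67.2 CPM in HPC and 80.8, 72.5 and 71.6 CPM in LPC, a log2 fold change of -0.007 ± 0.12. In both genes the groups overlapped. The nuclear receptor Esrra was at 35.4, 28.5 and 29.4 CPM in HPC and 29.8, 37.3 and 37.4 CPM in LPC, a log2 fold change of -0.16 ± 0.15. Tfam, which packs and transcribes mitochondrial DNA, was at 49.12, 60.21 and 45.04 CPM in HPC and 57.3, 53.8 and 41.9 CPM in LPC, a log2 fold change of 0.01 ± 0.16. The groups of Esrra and Tfam overlapped as well.

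Among fuel pathways, the 19 genes of the tricarboxylic acid cycle and pyruvate entry had a median of -0.075 with 12 negative. By replicate number the medians of these 19 were 0.02, -0.10 and -0.04. For them edgeR called 0 with or without the replicate block (without it, 1 higher, Ogdh, and 1 lower, Pdha1, at an unadjusted p under 0.05). In DESeq2 1 of them was called, against the 1.02% of all genes it called higher: Ogdh of the 2-oxoglutarate dehydrogenase step, at 543, 512 and 516 CPM in HPC and 399.6, 387 and 413 CPM in LPC (edgeR adjusted p = 0.245). Pdha1, of the pyruvate dehydrogenase complex, was at 124, 122 and 119 CPM in HPC and 138, 150.5 and 141 CPM in LPC (edgeR adjusted p = 0.518), and both genes were named after their values were seen. The 16 glycolysis genes had a median of 0.04 with 10 positive and 0 called by edgeR in the unpaired fit, where 1 had an unadjusted p under 0.05. By replicate number the medians of these 16 were 0.32, -0.04 and -0.06. For number 1, 15 of them were higher in HPC, while 9 were lower for number 2 and 10 for number 3. Hk2, the hexokinase that starts glycolysis at the mitochondrial surface, was at 263, 218 and 186 CPM in HPC and 150.0, 154 and 146 CPM in LPC. All 3 HPC values lay above all 3 LPC values, and the log2 fold change was 0.57 ± 0.14. Hk2 passed in edgeR with the replicate block (edgeR adjusted p = 0.0493, against 0.238 without it) and in DESeq2 (adjusted p = 0.0233), and was higher in HPC for 3 of 3 replicate numbers.

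Promoters were read from RefSeq (GRCm38.p6) as windows of 250 bases before and 50 after the transcription start, found for 70 of the 87 members, to describe sequence that the members share. The 8-letter core GCATGCGC of NRF1, a factor known for respiratory chain promoters, was searched on both strands and lay in 11 of 70 member promoters (15.7%). It lay in 3.05% of the 27025 genes in the promoter table and 4.02% of the 16922 protein-coding genes also in the count table. For 10 of the 11 the first base of the core lay before the start, as it did for 88.7% of the 824 genes in the promoter table that hold it. Examples from each stage of the chain are shown, with 30 bases on the strand of the gene and the motif in capitals.
Ndufa8 (chr2:36049328-36049357, minus strand): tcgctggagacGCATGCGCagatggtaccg
Sdhb (chr4:140961206-140961235, plus strand): aagcccagtggGCATGCGCcctacgggccg
Uqcr11 (chr10:80406807-80406836, minus strand): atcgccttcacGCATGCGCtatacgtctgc
Cycs (chr6:50566611-50566640, minus strand): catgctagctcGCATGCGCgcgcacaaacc
Cox6a1 (chr5:115349100-115349129, minus strand): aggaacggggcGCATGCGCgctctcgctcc
Atp5k (chr5:108434429-108434458, minus strand): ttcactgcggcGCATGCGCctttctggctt

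The motif AAGATGGC of YY1, a zinc finger factor, lay in 11 member promoters (15.7%). It lay in 3.19% of all genes in the promoter table and 3.58% of the protein-coding genes in the count table. In 9 of the 11 member promoters it lay after the start on the strand of the gene. That is 12.9% of the members, against 1.04% of all genes in the promoter table. The motif contains ATG, the letters of a start codon, and whether these sites are translation starts rather than YY1 sites was not tested. Of the 11 members with the motif, 7 were among the 31 promoters found for complex I. Another 4 were among the 16 of complex V, with Atp5sl, which is not a subunit of the ATP synthase. Promoters were found for only 3, 5 and 14 members of complexes II, III and IV, and 0 of them held the motif. The sites below show the motif, in capitals, just inside the transcript, counted from at least 1 annotated start of the gene.
Ndufa9 (chr6:126849097-126849126, minus strand): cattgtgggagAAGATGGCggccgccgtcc
Ndufc1 (chr3:51408915-51408944, minus strand): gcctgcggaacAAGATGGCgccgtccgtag
Ndufs7 (chr10:80249462-80249491, plus strand): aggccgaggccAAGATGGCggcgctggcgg
Atp5j2 (chr5:145191500-145191529, minus strand): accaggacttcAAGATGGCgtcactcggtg
Atp5sl (chr7:25619429-25619458, plus strand): cgttacctggcAAGATGGCggcgcccagag

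The ETS core CCGGAAGT lay in 5 member promoters (7.14%, against 4.31% of the promoter table and 5.83% of protein-coding genes in the count table). The ERR motif TCAAGGTCA lay in 2 (2.86%, against 0.466% and 0.36%). The SP1 motif GGGGCGGGG lay in 12 (17.1%, against 12.9% of the promoter table and 17.7% of protein-coding genes in the count table). The reverse complements were searched as well, and no motif contains another. Groups of members by motif had close medians. The median log2 fold change was -0.15 for the 11 with the NRF1 core, -0.16 for the 11 with YY1 and -0.14 for the 40 tested members with neither of these nor ETS. The ETS site in the promoter of Atp5h, the member with the most negative value, is shown with its core in capitals, read on the opposite strand.
Atp5h (chr11:115419940-115419969, minus strand): ccaaggagagaACTTCCGGcaactctcttc

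**Figure D4:**
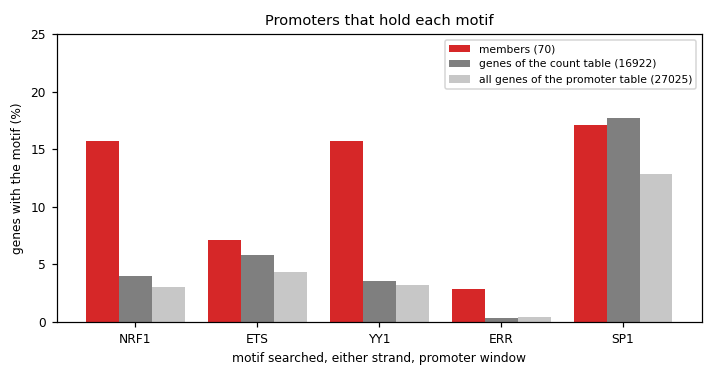
Share of genes whose 300-base promoter window holds each motif on either strand. Bars are 70 members (red), 16922 protein-coding genes of the count table with a promoter (dark grey) and 27025 genes of the promoter table (light grey). NRF1 and YY1 stand at 15.7% of members against 3.05% and 3.19% of all genes in the promoter table. SP1 at 17.1% of members is beside 17.7% of the count table's protein-coding genes.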

How the data were processed

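RNA from sorted HPC and LPC of B16-F3 was made into 6 QuantSeq 3' mRNA-Seq FWD libraries, which read the 3' ends of polyadenylated RNA, and sequenced on a NextSeq 500, per the labels' protocols. The authors deposited raw counts per gene. Their processing notes name STAR and GRCm38, while the sources used here do not give the counter, its strand setting or any molecular identifiers. Overlapping genes could share reads: 29 members overlap a gene on the opposite strand and 11 one on the same strand.

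From the deposited counts, genes were filtered with filterByExpr, scaled with TMM and tested with edgeR 4.0.16 (R 4.3.3), in a model of group alone (4 residual degrees of freedom). CPM used TMM factors, and pair differences a prior count of 2. A replicate block was fitted beside it (2 residual degrees of freedom). Deviations of equally numbered libraries correlated at 0.425, 0.353 and 0.651, all above the minimum of 0.1, so the pairing comes from the data. HPC replicate 2 and LPC replicate 1, of unequal number, correlated at 0.204, also above that minimum. The other unequally numbered pairs had negative correlations. Deviations were taken from the mean of each group, so positive values force negative ones elsewhere, and these are no separate support for the pairing. Lengths and positions are from GENCODE on GRCm38. Libraries held 14695822 to 22186743 reads, and the precision of each fold change is given by its SE or 95% interval.

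Alternatives were DESeq2 1.42.0, limma 3.58.1 with voom, RLE, upper quartile and library-size scaling, no filter, a length and GC correction (splines with 4 degrees of freedom), and leaving out libraries or pairs. The unpaired edgeR test was checked on simulated counts with 2-fold and 4-fold changes, of which it recovered 73% and 91%. Of its 176 calls, 12 were false. The simulation held no changes as small as those of the members, no trend with length and no pairing, so it does not show how such small differences are recovered. Members, gene lists and tests were chosen with earlier results of these data known. Genes named with values in every library are the 3 with the smallest p in each complex, a list of core subunits, the main genes of isoform families (rare forms by their reads or shares), and of other lists those called in either edgeR fit, 5 regulators and mt-Nd5. Pdgfra and the other marker genes are given as means. The values of 1 core subunit are not reported here. Exceptions are said to be chosen after their values were seen. Tyr also checks the sort.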

Additional observations from a re-analysis of the deposited data

How the results depend on the processing

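Each alternative run on all 6 libraries, and each fit without a single library, called 0 members higher and 0 lower. With the replicate block the members' median log2 fold change was -0.14, with 73 of 79 negative and 0 called, and it changed no call on members. The exception was the replicate block without the pair numbered 1, in which 34 of 79 members were called lower and 0 higher, against 10.8% of all genes in that fit lower and 13.8% higher. That fit leaves 1 residual degree of freedom, and its p-values carry little weight. Over other scalings, tests and filters the median lay between -0.18 and -0.14 with 73 to 76 negative. Leaving out single libraries gave -0.23 (without LPC replicate 1) to -0.036 (without LPC replicate 2), with 54 to 76 negative.

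Of 31 named members, 11 changed sign in at least 1 of 18 alternatives, and no reversed value passed. The cause was not tested. With the length and GC correction, without and with the replicate block, the log2 fold changes were 0.028 and 0.03 for Ndufv1, 0.011 and 0.012 for Sdha, 0.085 and 0.084 for Cox6a1, 0.034 and 0.038 for Cox7a2 and 0.076 and 0.084 for Atp5g2. Without a filter they were 0.001 for Cycs and 0.007 for Sdha. For Ndufs1 they were -0.022 with upper quartile scaling and -0.011 with library size only. In the replicate block without the pair numbered 1, Sdha stood at 0.034. Without the pair numbered 2 the values were 0.002 for Sdhc, 0.011 for Ndufv1, 0.02 for Sdha and 0.001 for Atp5g1. Without the pair numbered 3 they were 0.148 for Cycs, 0.038 for Sdhc, -0.021 for Ndufs1, 0.041 for Cox7a2 and 0.006 for Atp5g1.

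Over fits that each leave out 1 library, the log2 fold change ran from -0.282 to 0.304 for Cycs, -0.147 to 0.01 for Sdhc, -0.118 to 0.019 for Ndufv1 and -0.076 to 0.065 for Ndufs1. It ran from -0.047 to 0.039 for Sdha, -0.164 to 0.033 for Atp5b, -0.199 to 0.057 for Cox7a2, -0.505 to 0.158 for Ndufa4l2, -0.147 to 0.144 for Atp5g1 and -0.224 to 0.005 for Atp5g2. The widest intervals were those of Ndufa4l2 (9 to 26 reads per library), Atp5l (6 to 13), Cycs (61 to 151) and Atp5g2 (12 to 20). The SE of Cycs was 0.367, and 0.205 with the replicate block, while Cox7c, with 71 to 110 reads, had an SE of 0.232. The part of depth in these widths was not tested.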

Other observations

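Some members have near-identical copies or few reads. For 69 of the 87 members no 50-base word of the last 300 bases of the longest coding transcript occurs in another annotated gene. The 62 of these that were tested had a median log2 fold change of -0.15, with 59 negative. Other 3' ends of a member were not searched, so these members may still have copies. Atp5l and Cycs, at means of 0.550 and 6.06 CPM, count among the 69 by that transcript alone. At least 50% of the words were shared for 5 members: Atp5h (76.5%), Cox7c (73.3%), Atp5l-ps1 (57.8%), Ndufs5 (54.6%) and Ndufs3 (53.0%). Cox7c, a small subunit of complex IV, was at 4.49 ± 0.88 in HPC against 5.36 ± 0.52 CPM in LPC (SD, n = 3). Ndufs5, an accessory subunit of complex I, was at 9.59 ± 2.20 in HPC against 9.14 ± 1.52 CPM in LPC (SD, n = 3). Of the tested members, 8 had a mean under 10 CPM. These genes were chosen after their values were seen.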
